A study of Homo sapiens with 6 samples.

Results

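The proteasome subunit genes are the 47 protein-coding genes of the deposited count table whose symbol runs from PSMA to PSMG followed by a number, out of 24054 genes in all, 16881 of them protein coding. A2780 is an established line from a human ovarian cancer, labelled WT in all samples. Cells of this 1 line were kept for 48 h with SCR-6920 at 1 µM (3 RNA-seq samples), and others for the same 48 h with the solvent DMSO (3 samples). The title of the series calls SCR-6920 a PRMT5 inhibitor, and PRMT5 methylates arginines of histones, splicing proteins and other substrates. Nothing in the labels ties replicates to separate cultures, so the p-values speak only of the spread among the samples at hand, possibly a technical one.

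The proteasome is the protease that degrades most ubiquitin-tagged protein in the cytosol and nucleus. Its 20S core is a barrel of outer alpha rings, which gate the entry, and inner beta rings, which carry the cutting sites. The 19S regulatory particle caps the barrel, binds ubiquitin, unfolds the substrate with a ring of ATPases and feeds it in, and the 11S caps and PA200 open the gate without ubiquitin. In cells that respond to interferon, 3 inducible beta subunits take the place of the constitutive catalytic subunits and form the immunoproteasome, which makes many of the peptides shown by MHC class I. Constitutive subunit genes are known to be raised together by the transcription factor NRF1 (gene NFE2L1) when proteasomes are inhibited.

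After SCR-6920 the immunoproteasome subunits PSMB8, PSMB9 and PSMB10 fell in mRNA level, to 0.748-, 0.777- and 0.773-fold of DMSO. The mRNA of the 20S core, summed per length and library total, differed by less than the spread between replicates. Of its 14 subunits, 5 were called higher and 2 lower. The 19S particle was mixed, with 5 subunits lower and 2 higher of 17. Over all 14233 tested genes, 21.3% were called lower and 20.6% higher. Among the genes outside these assemblies, the 19S assembly chaperone PSMD9 fell furthest of all tested members, to 0.717-fold, and the activator subunit PSME1 fell to 0.863-fold. Of the 47 genes, 46 passed the filter on low counts, and PSMA8 had no count in any sample.

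Of the 46 tested members, 26 changed at an adjusted p under 0.05, 8 of them higher and 18 lower, where 42.0% of all 14233 tested genes changed, 20.6% higher and 21.3% lower. A call also depends on the count level of a gene, and the members were not compared with genes of like level. The median log2 fold change, SCR-6920 over DMSO, was -0.029 over the members and -0.0019 over all tested genes. Changes were small: the median size of a log2 change, regardless of sign, was 0.12 over the members and 0.19 over all tested genes. No member rose by 1.25-fold or more, against 8.58% of all tested genes, and 4 members fell to 0.8-fold or less (PSMB8, PSMB9, PSMB10 and PSMD9), against 10.8%. The groups did not overlap for 31 of the 46, 11 higher and 20 lower, against 50.6% of all tested genes (24.9% higher and 25.8% lower). These are bulk counts of mRNA, so a lower level in every cell and a loss in some of the cells cannot be told apart, and proteasome protein and activity were not measured.

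**Figure D1:**
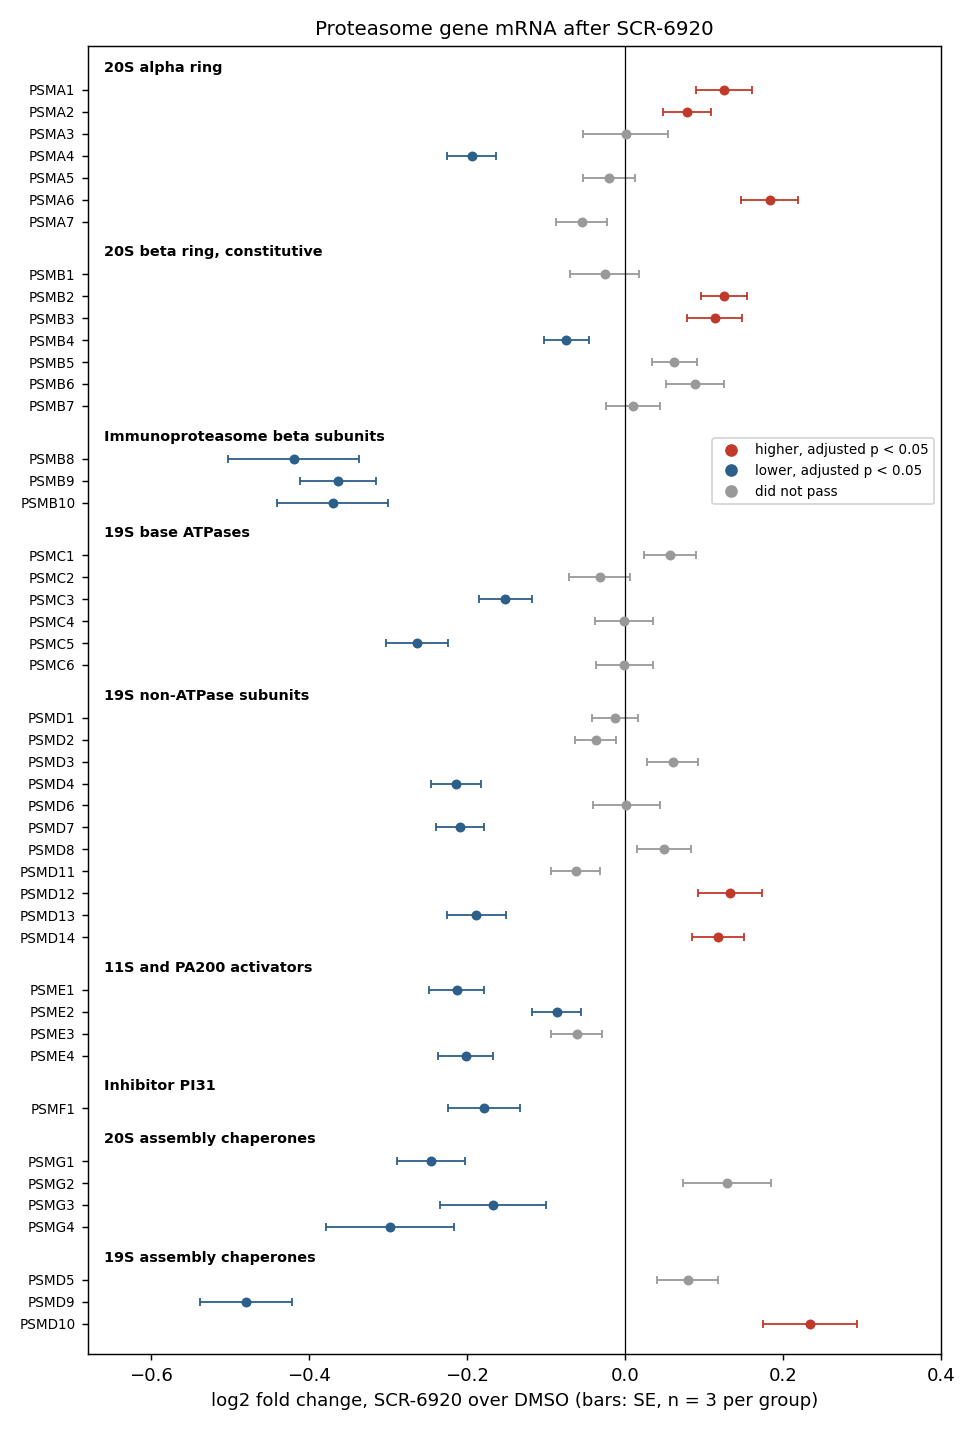
Log2 fold change of each of the 46 tested proteasome genes, SCR-6920 over DMSO, with its SE (n = 3 per group), grouped by role. Red points rose and blue points fell at an adjusted p under 0.05 (edgeR), and grey points did not pass. The 3 immunoproteasome subunits sit between -0.42 and -0.36, and PSMD9 lies lowest at -0.48.

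Totals were between 38149448 and 38642181 counts in SCR-6920 samples and between 39122787 and 39749993 in DMSO samples. DMSO replicate 1 stood somewhat apart, with a chi-square per gene of 6.87 and 9.25 against the other DMSO samples, where other pairs within a group gave 3.74 to 4.44. Without it, 8 members were called higher and 20 lower. Markers expected of ovarian carcinoma and epithelium were nearly absent: PAX8, MUC16, EPCAM and KRT19 lay under 1 CPM (counts scaled to 1e+06 per TMM-adjusted library) in all 6 samples, and the 7 measured markers summed to 6.97 to 9.26 CPM in SCR-6920 samples and 4.75 to 5.64 CPM in DMSO samples. The cell type therefore rests on the label. The fibroblast marker list summed to 575 to 579.6 CPM in SCR-6920 samples and 511 to 531 CPM in DMSO samples. PDGFRA alone averaged 499 CPM with SCR-6920 and 443 CPM with DMSO, so the sum is mostly this gene. LUM lay under 1 CPM in all 6 samples, and PDGFRB averaged 2.49 CPM with SCR-6920 and 2.05 CPM with DMSO. In this list COL1A1 was higher at 1.92-fold and THY1 lower at 0.811-fold, among the 3 that rose and 1 that fell. In the epithelial list 2 of 4 tested genes rose, KRT8 (1.49-fold, adjusted p = 0.0456) and EPCAM (3.44-fold, adjusted p = 0.0103), with EPCAM not called without DMSO replicate 1 or without SCR-6920 replicate 2, and KRT8 not called in 9 of the 15 other fits. The part of these shifts in the proteasome values was not tested, and 5 of 6 endothelial markers were under the count filter. For PRMT5, whose protein is the target, mRNA changed by 0.018 ± 0.033 on the log2 scale (SE) and missed the threshold (adjusted p = 0.705).

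The inducible catalytic subunits were examined first because they separate the immunoproteasome from the standard core. PSMB9 (beta 1i), which replaces PSMB6, had 58.0, 63.8 and 57.0 CPM in the SCR-6920 samples, against 75.2, 76.5 and 78.4 CPM in the DMSO samples. All treated samples lay below all DMSO samples, and the log2 change was -0.36 ± 0.048 (SE, n = 3 per group, adjusted p = 2.21e-07). PSMB10 (beta 2i), which replaces PSMB7, had 28.3, 25.3 and 31.2 CPM in the SCR-6920 samples, against 35.2, 36.7 and 37.7 CPM in the DMSO samples. The groups again did not overlap, with a log2 change of -0.37 ± 0.070 (adjusted p = 5.73e-05). PSMB8 (beta 5i), which replaces PSMB5 and carries the chymotrypsin-like site, had 16.2, 14.7 and 15.6 CPM in the SCR-6920 samples, against 20.3, 21.7 and 20.2 CPM in the DMSO samples. It was the scarcest of the 3 and fell to 0.748-fold, or -0.42 ± 0.083 on the log2 scale (adjusted p = 0.000107). All 3 calls were kept under each of the 15 other fits, which changed the scaling, the filter, the test or the samples.

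The constitutive partners did not follow. PSMB6 had 131, 125 and 135 CPM in the SCR-6920 samples, against 122, 123 and 124 CPM in the DMSO samples, a log2 change of 0.088 ± 0.037 that did not pass (adjusted p = 0.0557), although it passed without SCR-6920 replicate 2 (adjusted p = 0.0306). PSMB7 was at 158, 157 and 162 CPM in the SCR-6920 samples, against 156, 154 and 163 CPM in the DMSO samples, and its groups overlapped (log2 change 0.010 ± 0.034, adjusted p = 0.846). PSMB5, the subunit bound by the drug bortezomib, had 292, 293 and 298 CPM in the SCR-6920 samples, against 277, 282 and 287 CPM in the DMSO samples, with no overlap but a log2 change of 0.062 ± 0.029 that did not pass (adjusted p = 0.0806).

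Ratios of counts within a sample need no scaling and compare each inducible subunit with the one it replaces. PSMB9 counts were 44.2, 50.9 and 42.3% in the SCR-6920 samples, against 61.8, 62.2 and 63.5% in the DMSO samples, as a percent of PSMB6 counts. PSMB10 counts were 17.9, 16.1 and 19.3% in the SCR-6920 samples, against 22.5, 23.9 and 23.0% in the DMSO samples, as a percent of PSMB7. PSMB8 counts were 5.55, 5.00 and 5.24% in the SCR-6920 samples, against 7.34, 7.70 and 7.02% in the DMSO samples, as a percent of PSMB5. The log2 ratios differed by -0.45, -0.39 and -0.48 (SCR-6920 minus DMSO), and the groups did not overlap for any of the 3 pairs. A two-sided exact permutation test gave p = 0.1 for each pair, also after adjustment over the 3, which is the smallest p that 3 samples against 3 allow. Per length, the 3 inducible subunits held 15.02 ± 0.25% of the summed FPKM (fragments scaled by gene length and library total) of the 6 catalytic subunits in SCR-6920 samples, and 19.18 ± 0.19% in DMSO samples (SD, n = 3).

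**Figure D2:**
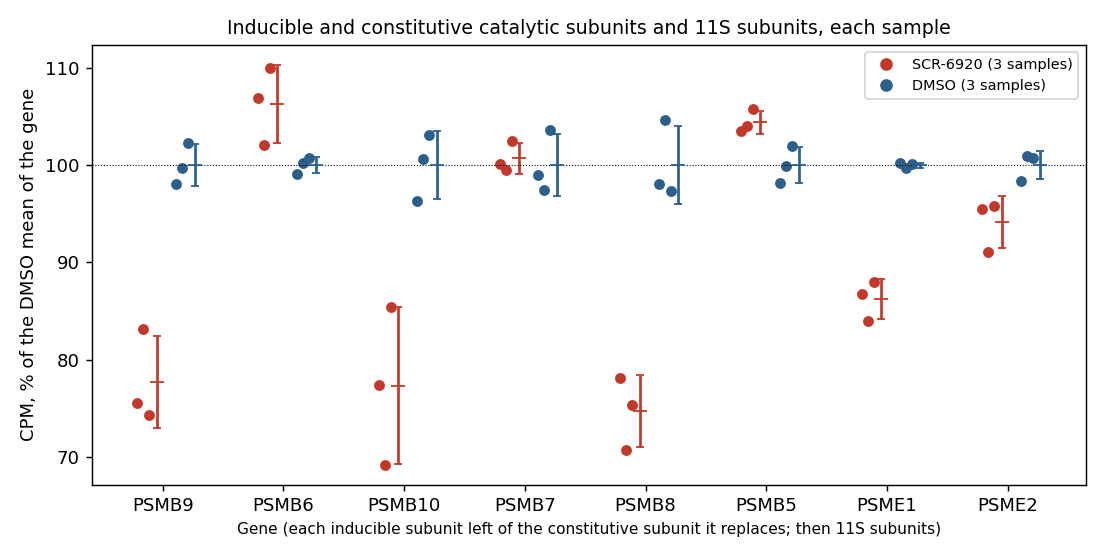
CPM of each sample as a percent of the gene's DMSO mean (vertical axis, not starting at 0) for the 3 inducible catalytic subunits, each left of the constitutive subunit it replaces, and for the 11S subunits PSME1 and PSME2. Red points are the 3 SCR-6920 samples and blue points the 3 DMSO samples, with the mean and SD beside them; treated samples lie below DMSO for PSMB8, PSMB9, PSMB10, PSME1 and PSME2, above it for PSMB5 and PSMB6, and overlap it for PSMB7.

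IRF1 is a transcription factor through which interferon raises the immunoproteasome genes, and NLRC5 is the transactivator of MHC class I genes. Of 8 genes listed for interferon induction and peptide loading, 1 rose, 4 fell and 3 did not pass, with a median log2 change of -0.076. Among those that fell, ERAP1 lost its call in 9 of the 15 other fits, and TAP2 lost it without SCR-6920 replicate 3. Over all tested genes, 20.6% rose and 21.3% fell. NLRC5 fell by 0.31 ± 0.039 (adjusted p = 6.09e-08), with 107, 108 and 115 CPM in the SCR-6920 samples, against 132, 140.1 and 137 CPM in the DMSO samples. IRF1 differed little, at 103, 106 and 108 CPM in the SCR-6920 samples, against 105, 105 and 108 CPM in the DMSO samples (log2 change -0.0071 ± 0.038, adjusted p = 0.905). TAP1, a subunit of the peptide transporter, was the listed gene that rose, by 0.094 ± 0.027 (adjusted p = 0.00557), a call absent without SCR-6920 replicate 2 (0.076, adjusted p = 0.0602). In RefSeq the start sites of TAP1 and PSMB9 lie 488 bases apart on opposite strands, and their log2 changes had opposite signs.

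Leukocytes, which express the immunoproteasome strongly, left few reads. PTPRC, the common leukocyte antigen, had no count in any sample, and 5 of 6 leukocyte markers lay under 1 CPM in all samples. The summed level of the 6 markers was 1.90 to 2.44 CPM in SCR-6920 samples and 2.96 to 3.46 CPM in DMSO samples. CD68, a macrophage gene that other cells also express, made up most of this and was the only one tested, with 1.99, 1.85 and 2.44 CPM in the SCR-6920 samples, against 3.18, 2.70 and 3.26 CPM in the DMSO samples and a log2 change of -0.54 ± 0.22 (adjusted p = 0.0458). The call on CD68 was lost in 4 of the 6 fits that left out a sample, and its part in the immunoproteasome values was not tested.

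The promoter windows of these genes, from 250 bases before the start site to 50 after it, were read from RefSeq (build GRCh38.p14), in which 41 of the 47 members had an entry. PSMA7, PSMB1, PSMB6, PSMB7, PSMD4 and PSMG3 had none and were not searched. The interferon-stimulated response element, a site bound by IRF proteins, was searched on both strands as the letters GAAA, 2 bases of any kind (NN), and GAAA again. It stood in the promoters of 7 members, and all 7 were called lower, although the calls on PSMB4, PSME2 and PSMG4 were lost in 7, 3 and 1 of the 15 other fits. A gene with several start sites was counted if any of its windows held a match. Both PSMA4 and PSMB8 also had windows without it. The letters occur in 4.38% of the 27305 genes with a window. Over all 441 tested genes that carry them, 20.4% were called lower, against 22.0% of all 11236 tested genes with a window, which is a share near that of all genes. In 5 of these members (PSMB8, PSMB10, PSME1, PSME2 and PSMG4) the match was the same 10 letters, GAAAGCGAAA or its reverse complement TTTCGCTTTC, which occur in the windows of 34 genes in all. Of the 27 tested genes among those 34, 10 were called lower, these 5 included, and 3 higher. The motif was chosen after the values were seen and the spelling is the most frequent among the members, so both are descriptions. The 7 stretches are shown because they carry that match, in capitals, and each is written 5′ to 3′ on the strand of the gene.
PSMB8, chr6:32844027-32844066, minus strand: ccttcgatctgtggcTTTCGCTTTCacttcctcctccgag
PSMB10, chr16:67936847-67936886, minus strand: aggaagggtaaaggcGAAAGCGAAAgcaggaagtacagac
PSME1, chr14:24136184-24136223, plus strand: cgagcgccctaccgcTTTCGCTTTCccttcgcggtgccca
PSME2, chr14:24146614-24146653, minus strand: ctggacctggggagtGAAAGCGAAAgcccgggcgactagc
PSMG4, chr6:3258899-3258938, plus strand: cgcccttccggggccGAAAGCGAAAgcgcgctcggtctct
PSMA4, chr15:78540155-78540194, plus strand: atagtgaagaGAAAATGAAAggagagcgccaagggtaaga
PSMB4, chr1:151399490-151399529, plus strand: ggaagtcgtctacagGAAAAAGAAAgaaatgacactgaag

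The window of PSMB9 held no match to that element or to the gamma-activated site TTCNNNGAA, which says only that these letters are not in these 300 bases. It is shown whole because it faces TAP1, and its capitals mark GCCTCGTCA, a match on the reverse strand to TGACNNNGC, the core of the antioxidant response element that NRF1 and NRF2 bind.
PSMB9, chr6:32853942-32854241, plus strand: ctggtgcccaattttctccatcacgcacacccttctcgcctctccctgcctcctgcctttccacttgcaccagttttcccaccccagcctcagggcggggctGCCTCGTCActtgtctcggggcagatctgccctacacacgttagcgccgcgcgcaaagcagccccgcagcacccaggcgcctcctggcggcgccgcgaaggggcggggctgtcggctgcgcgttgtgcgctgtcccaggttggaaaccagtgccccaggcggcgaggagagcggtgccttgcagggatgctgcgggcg

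That core stood in the windows of 15 of the 41 members (36.6%), against 16.1% of all genes with a window. Of those 15, 2 were called higher, 8 lower and 5 did not pass. Over the 2170 tested genes with the core, 21.4% were called higher and 24.1% lower.

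In the outer ring of the core, the alpha subunits changed both ways. PSMA6 (alpha 1) had 202, 202 and 193 CPM in the SCR-6920 samples, against 165, 182 and 179 CPM in the DMSO samples, the largest rise of the core at 0.18 ± 0.036 on the log2 scale (SE, adjusted p = 0.000107). PSMA1 (alpha 6) rose by 0.12 ± 0.035, with 177, 180.3 and 175 CPM in the SCR-6920 samples, against 159, 172 and 158 CPM in the DMSO samples. PSMA2 (alpha 2) rose by only 0.078 ± 0.030 (adjusted p = 0.0392), a call lost with DMSO replicate 1 (adjusted p = 0.0516), DMSO replicate 2 (0.149), SCR-6920 replicate 1 (0.169) and SCR-6920 replicate 3 (0.131), each left out alone. PSMA4 (alpha 3), whose N-terminal tail is the main part of the closed gate, went the other way, with 218, 206 and 207 CPM in the SCR-6920 samples, against 240.4, 241 and 239 CPM in the DMSO samples, a log2 change of -0.19 ± 0.031 (adjusted p = 5.04e-06). Its 3 treated values lay well below the narrow DMSO range.

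PSMA3 (alpha 7) did not pass, at 207, 203 and 203 CPM in the SCR-6920 samples, against 225, 197 and 190.4 CPM in the DMSO samples. DMSO replicate 1 was the highest of all 6 samples for it, and without that sample PSMA3 was called higher, by 0.077 (adjusted p = 0.0416). PSMA5 and PSMA7 had log2 changes of -0.020 ± 0.033 and -0.055 ± 0.032 and did not pass. PSMA8, the testis form of the alpha subunit PSMA7, had 0 counts in every sample. An upper limit of 3 counts per sample, taken for counting error only, corresponds to 0.0755 to 0.0786 CPM and is not a strict maximum.

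In the constitutive beta ring, PSMB2 (beta 4) had 309.6, 310.2 and 308 CPM in the SCR-6920 samples, against 274, 289 and 288 CPM in the DMSO samples, a log2 change of 0.12 ± 0.029 (adjusted p = 0.000705). PSMB3 (beta 3) rose by a similar 0.11 ± 0.035 (adjusted p = 0.00838). For PSMB4 (beta 7), the most abundant member per length, the log2 change was -0.075 ± 0.029 (adjusted p = 0.0369), and its groups overlapped at 348, 334 and 341 CPM in the SCR-6920 samples, against 347, 369 and 362 CPM in the DMSO samples. The PSMB4 call was lost in the fits leaving out DMSO replicate 2 (adjusted p = 0.237), DMSO replicate 3 (0.0687), SCR-6920 replicate 2 (0.15) and, separately, SCR-6920 replicate 3 (0.103). PSMB1 (beta 6) did not pass, at -0.026 ± 0.044. Over both rings 5 subunits rose, 2 fell and 7 did not pass, or 5 and 1 by DESeq2. The edgeR shares over all tested genes were 20.6% higher and 21.3% lower.

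Summed over its 14 constitutive genes, the 20S core had 2144, 2103 and 2133 FPKM in the SCR-6920 samples, against 2095, 2121 and 2124 FPKM in the DMSO samples. The samples of the groups interleaved, and the means were 2126 ± 21.1 FPKM in SCR-6920 samples and 2113 ± 15.9 FPKM in DMSO samples (SD, n = 3). This sum weighs abundant subunits most and is scaled by the library total, not by TMM. The median over the 14 genes was 157 ± 4.48 FPKM in SCR-6920 samples and 152 ± 1.84 FPKM in DMSO samples. The groups overlapped for it too. In the edgeR fit the median log2 change of the 14 genes was 0.036. Summed immunoproteasome mRNA, by contrast, was 97.3 ± 1.21 FPKM in SCR-6920 samples and 127 ± 2.78 FPKM in DMSO samples, with no overlap.

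**Figure D3:**
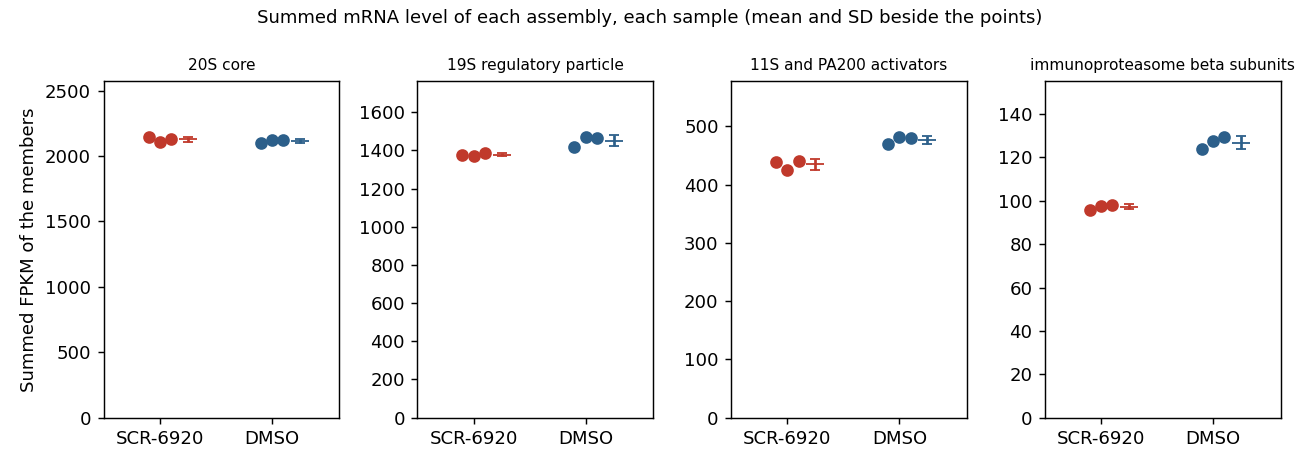
Summed FPKM of the members of each assembly in each sample (vertical axes from 0), with the mean and SD (n = 3) beside the points. SCR-6920 and DMSO samples interleave for the 20S core, while treated samples lie below DMSO for the 19S particle, the 11S and PA200 activators and the immunoproteasome beta subunits.

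Within the 19S base, which unfolds substrates, 2 of the 6 ATPases fell and none rose, where 21.3% of all tested genes fell and 20.6% rose. PSMC5 had 116, 119 and 112 CPM in the SCR-6920 samples, against 133, 146 and 138 CPM in the DMSO samples, a log2 change of -0.26 ± 0.039 (SE, adjusted p = 1.5e-06). PSMC3 had 167, 157 and 161 CPM in the SCR-6920 samples, against 179, 177 and 181 CPM in the DMSO samples, a log2 change of -0.15 ± 0.034 (adjusted p = 0.000409). For both, every treated sample lay below every DMSO sample. PSMC1, PSMC2, PSMC4 and PSMC6 did not pass, with log2 changes between -0.033 and 0.057.

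Of the 11 non-ATPase subunits of the 19S particle, 3 fell, 2 rose and 6 did not pass. The shares over all tested genes were 21.3% lower and 20.6% higher. PSMD4 (RPN10), a ubiquitin receptor, had 189.6, 192 and 197 CPM in the SCR-6920 samples, against 218, 225 and 229 CPM in the DMSO samples, a log2 change of -0.21 ± 0.032 (adjusted p = 1.45e-06). PSMD7 (RPN8), the lid partner of the deubiquitinase subunit, had 211, 209 and 213 CPM in the SCR-6920 samples, against 239, 247 and 245 CPM in the DMSO samples, a log2 change of -0.21 ± 0.030 (adjusted p = 9.05e-07). PSMD13 (RPN9) of the lid fell by 0.19 ± 0.037, with 106, 105 and 106 CPM in the SCR-6920 samples, against 121, 123 and 118 CPM in the DMSO samples. None of these 3 genes had overlapping groups.

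PSMD14 (RPN11), the deubiquitinase that removes the ubiquitin chain, rose, with 199, 196 and 194 CPM in the SCR-6920 samples, against 174, 187 and 182 CPM in the DMSO samples, a log2 change of 0.12 ± 0.033 (adjusted p = 0.0045). Its direction was thus opposite to that of its binding partner PSMD7. PSMD12 (RPN5) rose by 0.13 ± 0.041 (adjusted p = 0.0096), but at 149.7, 152 and 151 CPM in the SCR-6920 samples, against 149, 132 and 131 CPM in the DMSO samples the groups nearly met at DMSO replicate 1. That call was lost in the fits leaving out DMSO replicate 2 (adjusted p = 0.0789), DMSO replicate 3 (0.0646) and, separately, SCR-6920 replicate 2 (0.0671) and by limma on log2(FPKM + 1) (0.0744), so 1 subunit of the particle rose in each of these fits. PSMD1 and PSMD2, the large scaffolds of the base, did not pass, at -0.013 ± 0.030 and -0.037 ± 0.026, nor did PSMD3, PSMD6, PSMD8 and PSMD11, at 0.060 ± 0.032, 0.0013 ± 0.043, 0.049 ± 0.034 and -0.063 ± 0.031. Without DMSO replicate 1, PSMD11 was called lower, by 0.079 (adjusted p = 0.0328). Summed over the 17 genes, the 19S particle had 1377, 1370.4 and 1386 FPKM in the SCR-6920 samples, against 1419, 1469 and 1465 FPKM in the DMSO samples, without overlap, and a ratio of means of 0.949. The sum weighs abundant subunits most. The median over the 17 genes was 78.0 ± 1.68 FPKM in SCR-6920 samples and 80.7 ± 3.21 FPKM in DMSO samples (SD, n = 3). For this median the groups overlapped. In the edgeR fit the median log2 change of the 17 genes was -0.013.

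Among the activators, 3 of 4 fell and none rose, where 21.3% of all tested genes fell and 20.6% rose. PSME1 (PA28 alpha), an interferon-inducible subunit of the 11S cap, had 135, 131 and 137 CPM in the SCR-6920 samples, against 156, 155 and 156 CPM in the DMSO samples, a log2 change of -0.21 ± 0.035 (SE, adjusted p = 6.19e-06). Its DMSO values lay within 1 CPM of each other, and all treated values were lower. PSME2 (PA28 beta), which forms the same cap, fell less, by 0.087 ± 0.031 (adjusted p = 0.0235), a call absent from the fit without DMSO replicate 2 (adjusted p = 0.102) and from that without SCR-6920 replicate 2 (0.139). PSME4 (PA200), a nuclear activator, had 151, 151 and 145 CPM in the SCR-6920 samples, against 166, 174 and 174 CPM in the DMSO samples, a log2 change of -0.20 ± 0.035 (adjusted p = 1.51e-05). PSME3 (PA28 gamma), the nuclear 11S form, did not pass, at -0.061 ± 0.032, but was called lower without DMSO replicate 1 (-0.099, adjusted p = 0.00362). PSMF1 (PI31), known as an inhibitor of the isolated core, also fell, with 79.1, 89.1 and 80.8 CPM in the SCR-6920 samples, against 93.1, 91.3 and 97.5 CPM in the DMSO samples and a log2 change of -0.18 ± 0.046 (adjusted p = 0.00174).

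The chaperones that build the particles included the largest single changes. PSMD9 (p27), which escorts ATPases into the 19S base, had 32.2, 34.3 and 34.3 CPM in the SCR-6920 samples, against 46.7, 45.4 and 48.5 CPM in the DMSO samples. All treated samples were far below the DMSO range, and the log2 change of -0.48 ± 0.058 (adjusted p = 3.86e-08) was the largest fall of all tested members. PSMD10 (gankyrin), another base chaperone that also binds MDM2 and RB1, went up instead, with 39.73, 40.02 and 39.79 CPM in the SCR-6920 samples, against 35.3, 34.2 and 32.2 CPM in the DMSO samples, a log2 change of 0.23 ± 0.060 (adjusted p = 0.00187). This was the largest rise of any tested member. PSMD5 (S5b), the remaining base chaperone, did not pass, at 0.079 ± 0.039 (adjusted p = 0.0999).

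Among the chaperones of the 20S alpha ring, PSMG1 (PAC1) had 69.9, 70.8 and 70.7 CPM in the SCR-6920 samples, against 83.9, 85.3 and 81.6 CPM in the DMSO samples, a log2 change of -0.25 ± 0.043 (adjusted p = 1.9e-05). Its partner PSMG2 (PAC2) had 54.1, 56.2 and 57.5 CPM in the SCR-6920 samples, against 47.1, 50.5 and 55.9 CPM in the DMSO samples, with DMSO replicate 3 inside the treated range, and did not pass at 0.13 ± 0.056 (adjusted p = 0.0645); it was called higher without DMSO replicate 3 (0.20, adjusted p = 0.00618). PSMG4 (PAC4) fell by 0.30 ± 0.081, with 17.0, 17.1 and 17.3 CPM in the SCR-6920 samples, against 20.8, 19.9 and 22.4 CPM in the DMSO samples. PSMG3 (PAC3) fell by 0.17 ± 0.068 (adjusted p = 0.0461), a call lost by DESeq2 (adjusted p = 0.0591) and when any sample but DMSO replicate 1 was left out (adjusted p from 0.0654 to 0.23). The antisense gene PSMG3-AS1, which shares exon bases with PSMG3, fell by 0.70 ± 0.17 (adjusted p = 0.0014).

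Levels per length differed more between subunits than between groups. PSMB4 was the highest of the members at 370.0 FPKM with SCR-6920 and 393 FPKM with DMSO, and PSMA5 the lowest of the constitutive core at 47.0 FPKM with SCR-6920 and 48.0 FPKM with DMSO, an 8.18-fold range in DMSO among subunits of a complex that holds equal numbers of each. In the 19S particle the DMSO means ran from 27.6 FPKM for PSMD12 to 169 FPKM for PSMD4. PSMB9 was the most abundant inducible subunit at 58.3 FPKM with SCR-6920 and 75.7 FPKM with DMSO, above PSMB10 at 28.8 FPKM with SCR-6920 and 37.5 FPKM with DMSO and PSMB8 at 10.1 FPKM with SCR-6920 and 13.6 FPKM with DMSO. The lowest member with counts was PSMG4, at 1.57 FPKM with SCR-6920 and 1.94 FPKM with DMSO. FPKM depends on the gene length the authors used, which for PSMG4 and PSMF1 came to 10891 and 8317 bases, so levels of such genes are understated if their main transcript is shorter. The lengths used were 918 bases for PSMB4, 3815 for PSMA5 and 5012 for PSMD12. Without length, the DMSO means of PSMB4 and PSMA5 were 359 and 183 CPM, much closer than in FPKM. The lowest of the constitutive core in CPM was instead PSMB1, at 85.0 CPM with DMSO. The ranges between subunits given above therefore depend on these lengths.

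**Figure D4:**
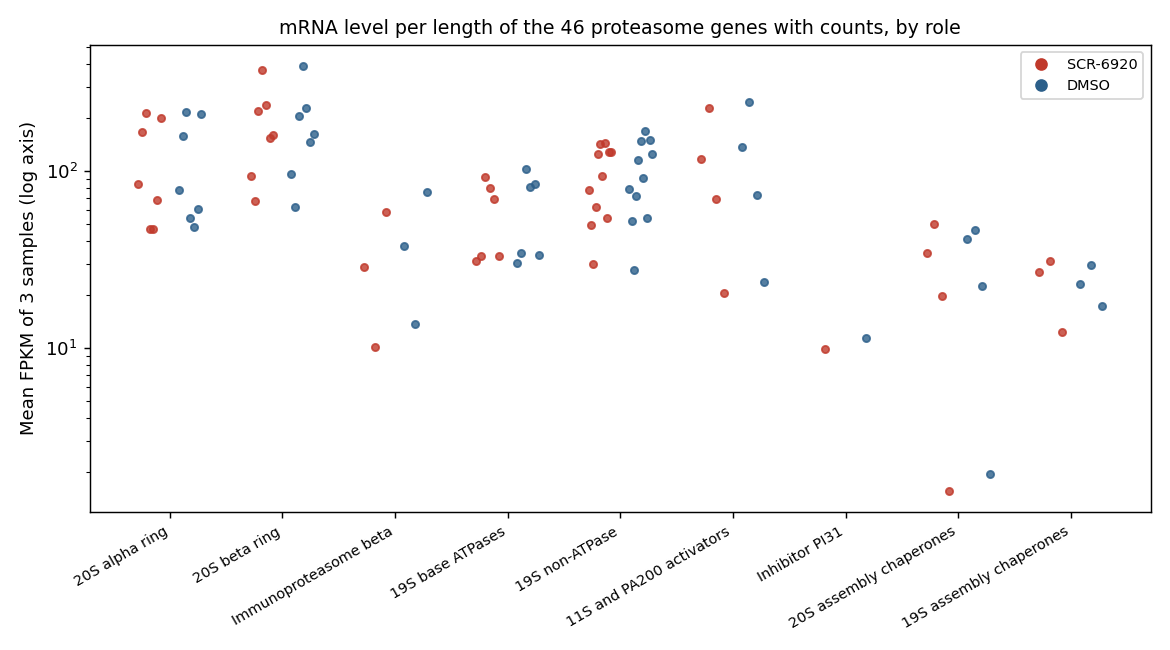
Mean FPKM of the 3 SCR-6920 samples (red, left) and of the 3 DMSO samples (blue, right) for the 46 proteasome genes with counts, by role, on a log axis; each point is 1 gene. Levels span from 1.57 FPKM (SCR-6920) and 1.94 FPKM (DMSO) for PSMG4 to 369.98 FPKM (SCR-6920) and 393 FPKM (DMSO) for PSMB4.

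Proteasome parts whose names fall outside the PSM series were counted from a separate list. Of 11 such parts and cofactors, 2 rose, 2 fell and 7 did not pass, with a median log2 change of 0.0095. Over all tested genes, 20.6% rose and 21.3% fell. SEM1 (DSS1), the smallest lid subunit, rose by 0.21 ± 0.038 (adjusted p = 2.35e-05), and TXNL1, a thioredoxin-like protein bound to the 19S particle, rose by 0.35 ± 0.042 (adjusted p = 4.31e-08). ECPAS, a scaffold that holds the 26S proteasome together, had 194, 192 and 192 CPM in the SCR-6920 samples, against 234, 244 and 247 CPM in the DMSO samples, a log2 change of -0.33 ± 0.031 (adjusted p = 2.75e-10), and UBE3C, a ubiquitin ligase at the proteasome, fell by 0.18 ± 0.039.

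Of 9 genes of the NRF1 axis, 1 rose, 2 fell and 6 did not pass (median 0.044), where 20.6% of all tested genes rose and 21.3% fell. NFE2L1 had 254, 260.3 and 255 CPM in the SCR-6920 samples, against 248, 250.3 and 248 CPM in the DMSO samples, a log2 change of 0.046 ± 0.029 that did not pass (adjusted p = 0.213). NGLY1, the enzyme that removes sugar chains from NRF1, fell by 0.26 ± 0.066 (adjusted p = 0.00157) and BACH1, a repressor at the same elements, by 0.17 ± 0.056 (adjusted p = 0.012), while the small MAF gene MAFF rose by 0.31 ± 0.091 (adjusted p = 0.00649). The BACH1 call was absent without DMSO replicate 1, where the log2 change was -0.098 (adjusted p = 0.143), and without SCR-6920 replicate 3 (-0.15, adjusted p = 0.0681).

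Upstream of the proteasome, the 6 genes of ubiquitin supply and activation split into 2 higher, 2 lower and 2 that did not pass. For this list and those that follow, the shares over all tested genes were 20.6% higher and 21.3% lower. UBA1, the main ubiquitin-activating enzyme, had 403, 414 and 419 CPM in the SCR-6920 samples, against 472, 495 and 509 CPM in the DMSO samples, a log2 change of -0.26 ± 0.028 (adjusted p = 6.45e-09). The polyubiquitin gene UBB fell by 0.14 ± 0.024, while RPS27A, which encodes ubiquitin fused to a ribosomal protein, rose by 0.11 ± 0.026. Of 11 substrate shuttles and VCP complex genes, 3 rose, 1 fell and 7 did not pass (median 0.035), with FAF2 and UFD1, which recruit or assist the segregase VCP, at 0.35 ± 0.040 and 0.19 ± 0.046 and the VCP cofactor FAF1 at -0.21 ± 0.045. Of 7 peptidases that trim proteasome products, 3 rose, 2 fell and 2 did not pass, with NPEPPS and BLMH higher by 0.19 ± 0.032 and 0.19 ± 0.037 and LAP3 and DPP3 at -0.20 ± 0.034 and -0.29 ± 0.052.

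Counting could mix genes that share sequence. In GENCODE 29, 19 of the 47 members share exon bases with a gene on the opposite strand, PSMB8 and PSMB9 with each other among them, and 12 have pseudogenes named after them. A further overlap, with a gene on the same strand, which stranded counting cannot separate, holds for 8 members, PSMD9 (with WDR66), PSMB10 (with AC040162.1) and PSMB9 (with PSMB8-AS1) among them. The library kit marks strand, but whether counting used it is not stated in the labels. PSMD13 shares exon bases with SIRT3, which rose by 0.31 ± 0.077 while PSMD13 fell. PSMC5 shares them with FTSJ3 (-0.079 ± 0.037, adjusted p = 0.0867), and PSME1 with EMC9, which fell by 0.31 ± 0.091 (adjusted p = 0.0055). The part of such overlaps in the values of PSMD9, PSMB9, PSMB10, PSMD13, PSMC5, PSME1 and PSMG3 was not tested.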

How the data were processed

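Titles gave the groups of the 6 RNA-seq samples, 3 with SCR-6920 and 3 with DMSO. The libraries came from a stranded mRNA kit of Illumina, per the labels' protocols. Tools named in the submitters' processing notes are HISAT2 and HTSeq, and the build named there is GRCm38, of mouse, although the genes are human. The sources used here give no versions, annotation or strand setting, so no coordinates come from the files. The authors deposited raw counts per gene and FPKM values; for all 21442 genes with a deposited FPKM above 0 it equalled the count over the sample total and 1 gene length (relative tolerance 1e-06).

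Counts were fitted in R 4.3.3 with edgeR 4.0.16 (filterByExpr, TMM, robust quasi-likelihood, group as the only term) over 14233 genes, with Benjamini-Hochberg adjustment over all of them and 0.05 as the threshold; each SE was taken from the log2 change and its F statistic. The fit was tested on simulated data, with 50 changed genes per fold drawn from all tested genes. It recovered 38% of the 1.2-fold, 56% of the 1.3-fold and 86% of the 2-fold changes, and called 0.029% of unchanged genes. Far fewer genes changed in the simulation than the 42.0% called in the data, and they were drawn over all levels of expression. These shares therefore do not describe the members. A small change that did not pass may still have been missed. Alternatives used limma 3.58.1 and DESeq2 1.42.0. Deposited FPKM gave levels between genes. Promoter windows came from RefSeq (GRCh38.p14) and exon overlaps from GENCODE 29.

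Members, lists and tests were chosen with earlier results of these data known, and the motifs after the members' values were seen. All members were named, with up to 2 genes each way per other list, NFE2L1 and PRMT5; a few genes under this rule are not reported here. IRF1, ERAP1, TAP2, the marker genes and the neighbours of members (SIRT3, FTSJ3, EMC9, PSMG3-AS1, PSMB8-AS1, WDR66, AC040162.1 and the divergent partners) were chosen after their values were seen.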

Additional observations from a re-analysis of the deposited data

How the results depend on the processing

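Of the 26 members called, 17 kept their call in the same direction under all 15 alternative fits, 4 higher and 13 lower, the 3 immunoproteasome subunits among them, and 9 lost it under at least 1 (PSMA1, PSMB3, PSMF1 and PSMG4 under limma without the FPKM filter only, and PSMA2, PSMB4, PSMD12, PSME2 and PSMG3 under several); no called member changed sign. Members called higher numbered 8, or 4 by limma on log2(FPKM + 1) without the FPKM filter, and 6 to 8 without 1 sample; members called lower numbered 18, and 15 to 20 without 1 sample. For the 20S core, 5 rose, or 2 by that unfiltered limma fit, and 4 to 6 without 1 sample; 2 fell, or 1 by DESeq2, 1 by unfiltered limma, 1 without the low-count filter, 1 at an adjusted p under 0.01, and 1 to 2 without 1 sample. For the 19S particle, 2 rose, or 1 by limma on log2(FPKM + 1), 1 without its filter and 1 on log2(FPKM + 0.1), and 1 to 2 without 1 sample. The cause was not tested. The other counts of calls stayed within 1.5 times, and the pair ratios kept their direction without any 1 sample and with 1 count added.

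Deviations of samples with the same number correlated at only 0.00663, 0.00497 and 0.0383. SCR-6920 replicates 1 and 3 were closest to the DMSO sample of their own number, and SCR-6920 replicate 2 to DMSO replicate 1. The labels do not say that the numbers pair samples, so they were not taken as pairs. With the replicate block, 6144 genes were called, and 9 members rose, PSMG2 being the added one (adjusted p = 0.0366), and 18 fell; the pair ratios had an exact p = 0.25, the smallest that 3 pairs allow. The median log2 change of all genes was -0.0019 in the main fit, 5.5e-05 with RLE factors and -0.013 by library size only. That of the members was -0.029, -0.027 and -0.041 in the same order. By library size only, PSMA2 lost its call. With this depth and 3 samples a group, the smallest log2 change called among the members was 0.075 in size (PSMB4).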

Other observations

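Several members have a gene on the opposite strand that starts within 1000 bases and is read away from them, by RefSeq start sites. Beside PSMB9 and TAP1, PSMD13 fell (-0.19 ± 0.037 on the log2 scale) while SIRT3, a mitochondrial deacetylase whose start lies 45 bases away, rose (0.31 ± 0.077, adjusted p = 0.00128). PSME2 and RNF31, a subunit of the linear ubiquitin ligase complex, both fell (-0.087 ± 0.031 and -0.39 ± 0.059), and PSMD10 and ATG4A, an autophagy protease, both rose (0.23 ± 0.060 and 0.49 ± 0.20). For PSMA2 and MRPL32 (0.078 ± 0.030 and 0.089 ± 0.051) and for PSMC5 and FTSJ3 (-0.26 ± 0.039 and -0.079 ± 0.037) the partner did not pass the edgeR test. These pairs were looked up after the members' values were known, and 2 pairs of members are themselves neighbours in RefSeq, PSMB8 with PSMB9 on chromosome 6 and PSME1 with PSME2 on chromosome 14, 9513 and 4403 bases apart.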
